A study of Mus musculus with 8 samples.

Results

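The 2 libraries numbered 5, one from each plasmid group, were compared with the 6 libraries numbered 1, 2 and 3, out of 8 in all. All were Min6 cells, which come from a mouse insulinoma and make insulin like pancreatic beta cells, grown in DMEM with 15% serum and collected 16 h after transfection by Lipofectamine. The control group had received pRK5-NLSeGFP, which expresses a green fluorescent protein targeted to the nucleus, and the Zac1 group pRK5-Zac1, which expresses Zac1, a transcription factor with zinc fingers whose gene is the imprinted Plagl1. The design text calls the 4 libraries of each group biological replicates. No source used here says what a number stands for (a passage, a day or a dish), what the medium's oxygen or the cell density was, or whether equal numbers in the groups share anything. P-values therefore measure only the spread between these libraries. The split was chosen by the measured levels of these same libraries, led by Ldha, Slc16a3, Bnip3 and Hk2, so the differences of replicate 5 are given as a description, with the plasmid as a covariate and with no test. What was tested is whether the difference of replicate 5 was the same in the Zac1 and the control cells.

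Glycolysis splits glucose into pyruvate, which mitochondria oxidise or lactate dehydrogenase turns into lactate. When oxygen is short, the prolyl hydroxylases that mark hypoxia-inducible factor (HIF) for destruction slow down, HIF accumulates as protein, and genes for glycolysis, lactate export and mitophagy are transcribed more. HIF binds DNA at a short core, ACGTG or, less tightly, GCGTG. Normal beta cells keep Ldha and lactate transport low, so that pyruvate enters the mitochondria and its oxidation triggers insulin release, while insulinoma lines express Ldha.

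The promoters of the 4 leading genes are shown because the genes share a known regulator. RefSeq promoters (build GRCm38.p6) were matched for 11621 of the 14807 tested genes, and the 250 bases before the start site are printed 5′ to 3′ on the gene's own strand, with each HIF core (ACGTG or GCGTG, on either strand, so CACGT or CACGC on the printed one) in capitals. Ldha (lactate dehydrogenase A) was printed from chr7:46845554-46845803 on the plus strand, the one of its 2 tabulated promoters that held more cores. Slc16a3 (the lactate exporter MCT4) came from chr11:120948817-120949066 on the plus strand. Bnip3 (a mitophagy receptor of the mitochondrial outer membrane) came from chr7:138909507-138909756 on the minus strand. Hk2 (hexokinase 2, which traps glucose in the cell) came from chr6:82774455-82774704 on the minus strand.
Ldha: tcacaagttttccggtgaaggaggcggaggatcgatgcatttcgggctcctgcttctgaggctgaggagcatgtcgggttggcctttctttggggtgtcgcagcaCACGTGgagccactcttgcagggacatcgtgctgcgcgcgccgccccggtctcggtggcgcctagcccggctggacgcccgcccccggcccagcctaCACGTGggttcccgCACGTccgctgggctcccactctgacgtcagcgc
Slc16a3: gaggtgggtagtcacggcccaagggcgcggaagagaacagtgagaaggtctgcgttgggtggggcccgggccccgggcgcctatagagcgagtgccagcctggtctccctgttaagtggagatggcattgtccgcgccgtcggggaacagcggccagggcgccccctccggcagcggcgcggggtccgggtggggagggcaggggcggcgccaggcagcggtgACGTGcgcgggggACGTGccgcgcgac
Bnip3: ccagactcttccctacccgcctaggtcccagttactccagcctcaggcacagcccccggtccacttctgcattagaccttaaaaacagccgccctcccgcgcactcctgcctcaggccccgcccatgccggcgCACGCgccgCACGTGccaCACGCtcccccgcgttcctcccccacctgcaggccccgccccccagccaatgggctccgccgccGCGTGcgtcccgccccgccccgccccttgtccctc
Hk2: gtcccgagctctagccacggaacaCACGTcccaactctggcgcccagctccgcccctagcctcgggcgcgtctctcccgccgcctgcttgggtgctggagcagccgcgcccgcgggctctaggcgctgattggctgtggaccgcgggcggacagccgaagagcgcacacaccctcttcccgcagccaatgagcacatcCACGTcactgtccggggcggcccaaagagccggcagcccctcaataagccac
The printed stretches held 5 matches in Ldha, 2 in Slc16a3, 5 in Bnip3 and 2 in Hk2, where the palindrome CACGTG counts once on each strand. Over 300 bases, from 250 before to 50 after the start, 43.8% of all 32851 tabulated mouse promoters and 59.7% of those of the tested genes held at least 1 core. A match is only a string of letters, and binding was not measured.

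The deposited table held 23100 genes, of which 14807 had enough counts to be compared. The libraries held 30.5 to 42.4 M counts, and the libraries numbered 5 were the shallowest of the control group (30.5 M) and the deepest of the Zac1 group (42.4 M). Plagl1, the targeted gene, lay at 78.2, 67.7, 78.9 and 85.7 counts per M (CPM) in control replicates 1, 2, 3 and 5 and at 5800, 4258, 4114 and 4383 CPM in the Zac1 libraries, so every library labelled Zac1 lay far above every control. The insulin genes Ins1 and Ins2 took 3.82% to 5.47% of the counts. Summed levels of markers of other cells were 1.93 to 3.39 CPM for fibroblasts, 14.1 to 17.4 for endothelial cells, 8.25 to 11.1 for macrophages and leukocytes and 5.86 to 9.60 for acinar and duct cells, with Lum, Cdh5, Tyrobp, Amy2a5 and Prss2 listed at 0 in every library. A listed 0 need not mean absence, since Ndufs5 and Hmgcs1, which most cells express, were also listed at 0 in all 8. Hepatocyte markers summed to 1311 to 1801 CPM, nearly all of it Ttr, which islet cells express too. The plasmids separated along the first principal component (45.5% of the variance). The second component (16.9%) held control replicate 5 at -16.6 and Zac1 replicate 5 at -27.8, and the other libraries between 3 and 16.2. Replicate 1 lay at the far end of it in both groups, at 11 and 16.2, so the counts of the main gene lists below are also given without replicate 1. The Zac1 library numbered 5 was also the lowest of the 8 in weakly expressed genes that overlap a strong gene on the opposite strand, as described at the end.

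The leading genes were lowest in replicate 5 and highest in replicate 1 in both plasmid groups. Ldha was at 427, 234, 192 and 92.8 CPM in control replicates 1, 2, 3 and 5 and at 358, 238, 210 and 94.9 CPM in the Zac1 libraries. Slc16a3 was at 80.8, 36.8, 33.8 and 8.60 CPM in the control and at 65.5, 31.6, 39.0 and 10.4 CPM in the Zac1 libraries. Bnip3 was at 258, 145, 123 and 55.1 CPM in the control and at 216, 144, 140 and 58.0 CPM in the Zac1 libraries. In all 3 genes the libraries numbered 5 were the lowest of their group and those numbered 1 the highest, and the ranges of replicate 5 and of replicates 1 to 3 did not overlap. Against the other numbers, replicate 5 was 2.94-fold lower for Ldha (log2 -1.56, SE 0.42), 5.0-fold lower for Slc16a3 (log2 -2.32, SE 0.58) and 3.02-fold lower for Bnip3 (log2 -1.60, SE 0.39). None of the 3 was past the threshold of an adjusted p of 0.05 in edgeR that is used below to sort genes. Without replicate 1 all 3 were past it, with log2 differences of -1.22, -1.90 and -1.29. These genes led the choice of the split, so nothing is read from their passing it.

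Hk2 was weakly expressed, with 17, 14, 3 and 2 counts in control replicates 1, 2, 3 and 5 and 25, 18, 14 and 4 counts in the Zac1 libraries. It was 4.92-fold lower in replicate 5 (log2 -2.30, SE 0.64) and past the threshold, but without replicate 1 it was not, and its levels are a few counts above 0. Taken within each plasmid, the log2 difference of replicate 5 was -1.62 in the control and -1.50 in the Zac1 libraries for Ldha, -2.55 and -2.13 for Slc16a3, and -1.67 and -1.52 for Bnip3. These genes were chosen for differing by number in both groups, so the likeness of the plasmids for them is given with no test.

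**Figure D1:**
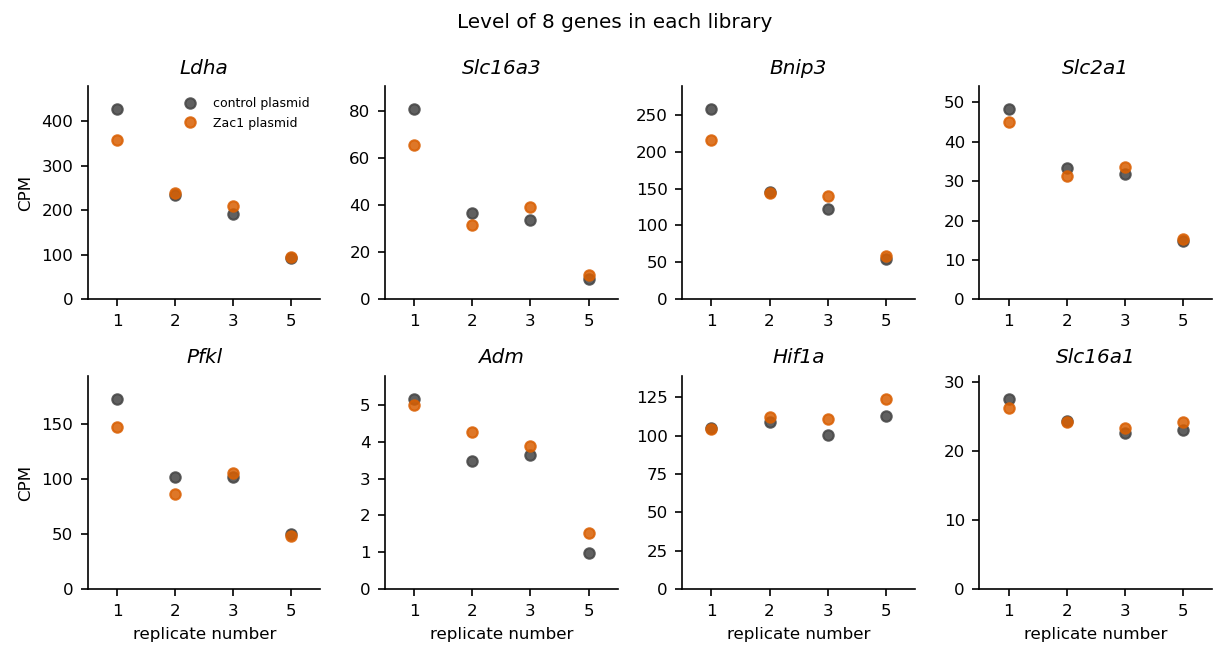
Level in CPM (linear axis from 0) of 8 genes against the replicate number, 1 point for each library, control and Zac1 in separate colours. In Ldha, Slc16a3 and Bnip3 the points numbered 5 are the lowest and those numbered 1 the highest in both groups, with Ldha going from 427 to 92.8 CPM in the control.

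Most of the glycolytic pathway lay lower in replicate 5. Of 19 enzymes tested, 5 were past the threshold and lower and 0 higher, where 5.08% of all tested genes were lower and 3.65% higher. Those counts describe the split and nothing is read from them, and the same shares are the background of every list below. The list holds the leading genes Hk2 and Ldha, and without them 4 of 17 were lower, with a median log2 difference of -0.57. The median log2 difference of the enzymes was -0.58, against -0.002 over all tested genes. In 17 of the 19, replicate 5 lay below the range of replicates 1 to 3 in both plasmid groups, as it did in 16.7% of all tested genes, and in 14 of the 19 replicate 1 was also the highest in both, as in 3.89% of all tested genes.

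The enzymes past the threshold included Hk2, Pfkm, Aldoc and Pkm2. Pkm2, as the table names the muscle-type pyruvate kinase gene, was at 3008, 2383, 2355 and 1846 CPM in the control and 2609, 2241, 2242 and 1720 CPM in the Zac1 libraries (log2 -0.47, SE 0.10). The library numbered 5 was the lowest of each group, and the difference was smaller than those of the leading genes. Aldolase C (Aldoc) had a log2 difference of -0.70 (SE 0.16) and the muscle-type phosphofructokinase (Pfkm) one of -0.17 (SE 0.05).

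Enzymes with larger differences missed the threshold. The liver-type phosphofructokinase gene Pfkl, which catalyses the committed step, was at 173, 101, 102 and 50.2 CPM in the control and 147, 85.8, 105 and 47.7 CPM in the Zac1 libraries (log2 -1.28, SE 0.34). Tpi1 (triose phosphate isomerase) was at 1441, 830, 915 and 543 CPM in the control and 1202, 798, 844 and 575 CPM in the Zac1 libraries (log2 -0.84, SE 0.30). Aldoa (aldolase A) had a log2 difference of -0.92 (SE 0.33), Pgk1 (phosphoglycerate kinase) one of -0.60 (SE 0.31) and Gapdh (the triose phosphate dehydrogenase often used as a reference gene) one of -0.42 (SE 0.15). In each of these 5 genes replicate 1 stood above replicates 2 and 3, and each was past the threshold without replicate 1. In that fit 13 of the 19 enzymes were lower, where 4.05% of all genes tested were, with a median of -0.40. Isoforms differed: Hk1, the housekeeping hexokinase, had a log2 difference of 0.11 (SE 0.06), and Ldhb, the lactate dehydrogenase subunit of oxidative tissue, one of 0.001 (SE 0.09), neither past the threshold. Eno1 was counted at only 0.0949 to 0.626 CPM, and since it has near-identical copies its level is uncertain.

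**Figure D2:**
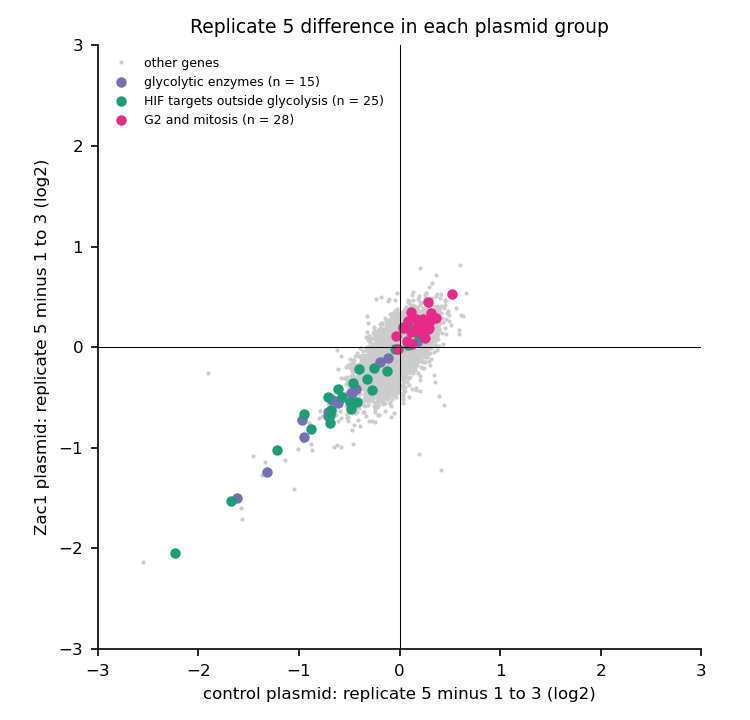
Log2 difference of replicate 5 from replicates 1 to 3 in the Zac1 libraries (vertical axis) against the same in the control libraries (horizontal axis), 1 point for each of the 9285 tested genes with a mean of at least 10 CPM, with glycolytic enzymes, HIF targets and G2 and mitosis genes coloured. Enzymes and targets spread along the diagonal to the lower left, such as Ldha at -1.62 in the control and -1.50 in the Zac1 libraries, and the mitosis genes lie close together at the upper right.

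Glucose and lactate transport differed in some members and not in others. Of 10 genes tested, 2 were lower (Slc2a1 and Bsg) and 0 higher, with a median of -0.12. Slc2a1, the glucose transporter GLUT1, was at 48.4, 33.4, 31.9 and 14.7 CPM in the control and 45.1, 31.4, 33.5 and 15.3 CPM in the Zac1 libraries, 2.48-fold lower in replicate 5 (log2 -1.31, SE 0.25). Bsg, the basigin chaperone of lactate transporters, had a log2 difference of -0.33 (SE 0.08). Slc16a1, the transporter MCT1 that beta cells normally keep low, was at 22.6 to 27.6 CPM in all 8 libraries (log2 -0.06, SE 0.08). Slc16a3, the leading gene of this list, is given above with a log2 difference of -2.32 (SE 0.58) that missed the threshold. The difference between the 2 transporter genes was not tested. Without replicate 1, 3 of the 10 were lower, and with the offsets for GC content described below 0 were.

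At the entry of pyruvate into mitochondria, 1 of 12 genes was lower and 0 higher, with a median of -0.02. That gene was Pcx, pyruvate carboxylase, which supplies oxaloacetate (log2 -0.24, SE 0.05). Pdk1, the kinase that switches pyruvate dehydrogenase off and a HIF target, was at 183, 101, 87.9 and 49.0 CPM in the control and 144, 103, 98.2 and 52.0 CPM in the Zac1 libraries (log2 -1.24, SE 0.37). It was past the threshold only without replicate 1. Of 16 regulators and side branches of glycolysis, 2 were lower and 1 higher. Gys1, muscle-type glycogen synthase, was at 73.3, 61.1, 53.3 and 32.1 CPM in the control and 70.2, 56.4, 54.4 and 31.6 CPM in the Zac1 libraries, 1.93-fold lower in replicate 5 (log2 -0.95, SE 0.15).

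In the oxygen-sensing machinery, 4 of 12 genes were lower and 0 higher, with a median of -0.20. They were the 3 HIF prolyl hydroxylases and Cited2, which competes with HIF for a shared coactivator. Egln1, the main hydroxylase (PHD2), was at 84.8, 69.5, 60.4 and 41.1 CPM in the control and 76.9, 67.3, 68.8 and 43.7 CPM in the Zac1 libraries, 1.68-fold lower (log2 -0.75, SE 0.12). Egln3 (PHD3) was 2.03-fold lower (log2 -1.02, SE 0.21), at 2.23 to 5.90 CPM. Egln1 and Egln3 are themselves HIF targets, and Egln2 (PHD1), which is not induced by hypoxia, had a smaller log2 difference of -0.42 (SE 0.09). With offsets for GC content and length, described below, Egln1 and Egln3 were past the threshold, and Egln2 (-0.16) and Cited2 (-0.27) were not. Cited2 had a log2 difference of -0.35 (SE 0.10) without offsets and was not past the threshold without replicate 1 either.

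The RNA of the HIF subunit itself was not lower. Hif1a was at 105, 109, 100 and 113 CPM in the control and 105, 113, 111 and 124 CPM in the Zac1 libraries. Replicate 5 was the highest of its group in both, by a log2 difference of 0.15 (SE 0.05) that was not past the threshold. Epas1, the HIF-2 alpha subunit, was at 0.237 to 0.995 CPM.

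Of 40 HIF targets outside glycolysis, 36 were tested, and 12 of these were lower and 1 higher, where 5.08% and 3.65% of all tested genes were. Their median log2 difference was -0.49, against -0.002 over all tested genes. In 24 of the 36, replicate 5 lay below the other numbers in both plasmid groups, as in 16.7% of all tested genes. In 18 of the 36, replicate 1 was also the highest in both, as in 3.89% of all tested genes. The list holds the leading gene Bnip3, and without it 12 of 35 were lower, with a median of -0.49. Without replicate 1 the count of lower targets was 21 of 35, with a median of -0.36.

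The secreted vasodilator peptide adrenomedullin (Adm) had the largest difference among the 12, at 5.17, 3.47, 3.65 and 0.984 CPM in the control and 5.01, 4.27, 3.88 and 1.52 CPM in the Zac1 libraries. It was 3.34-fold lower in replicate 5 (log2 -1.74, SE 0.21). The highest library numbered 5 lay below the lowest of the other 6, and the difference was -1.60 without replicate 1. Ak4, a mitochondrial adenylate kinase, was at 55.0, 28.6, 20.9 and 7.42 CPM in the control and 47.1, 30.3, 28.4 and 8.54 CPM in the Zac1 libraries. It was 4.38-fold lower (log2 -2.13, SE 0.52) and past the threshold only without replicate 1.

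Several of the lower targets act on transcription or chromatin. Mxi1, a repressor that opposes Myc, had a log2 difference of -0.72 (SE 0.12), Bhlhe40, a repressor that also feeds into the clock, one of -0.53 (SE 0.09), and Kdm4b, a histone demethylase, one of -0.49 (SE 0.08). Rora, a nuclear receptor, had a log2 difference of -0.39 (SE 0.12), and Zfp395, a zinc finger gene, one of -0.35 (SE 0.08). These were differences of 1.28-fold to 1.65-fold.

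The other lower targets included Bnip3l, the NIX mitophagy receptor related to Bnip3, at 109, 84.0, 74.2 and 55.4 CPM in the control and 91.8, 83.5, 82.8 and 56.0 CPM in the Zac1 libraries (log2 -0.65, SE 0.15). Vegfa, the angiogenic growth factor, was at 428, 352, 366 and 305 CPM in the control and 439, 373, 361 and 315 CPM in the Zac1 libraries (log2 -0.32, SE 0.08). In both genes replicate 5 was the lowest of its group, and for Vegfa the difference was 1.25-fold. Anxa2 (an annexin) had a log2 difference of -0.76, Narf one of -0.51, Ndrg1 one of -0.31 and Plod1 (a collagen lysyl hydroxylase) one of -0.23. The 1 target past the threshold and higher was Loxl2, a lysyl oxidase, at 0.16 (SE 0.05).

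Levels were alike in the control and the Zac1 library of the same number. Among 49 oxygen and glycolysis genes with a mean of at least 10 CPM, the median absolute log2 difference between a control and a Zac1 library of the same number was 0.09, and that between 2 libraries of the same plasmid was 0.26. Over all 9285 tested genes at that level, the same medians were 0.07 and 0.09. Without the leading genes they were 0.09 and 0.25 over 47 genes, and since the lists were chosen with the split known, these values are a description. In 36 of the 49, replicate 5 lay below the range of the other numbers in both groups, where it did in 16.7% of tested genes of any level. In 31 of the 49, replicate 1 was also the highest in both, where it was in 3.89% of tested genes. The 49 hold leading genes, and these counts were not repeated without them. Summed over the 19 glycolytic enzymes, the control libraries held 10210, 6911, 6804 and 5135 CPM and the Zac1 libraries 8741, 6787, 6691 and 5036 CPM, so that replicate 1 was the furthest library on the high side and replicate 5 on the low side.

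**Figure D3:**
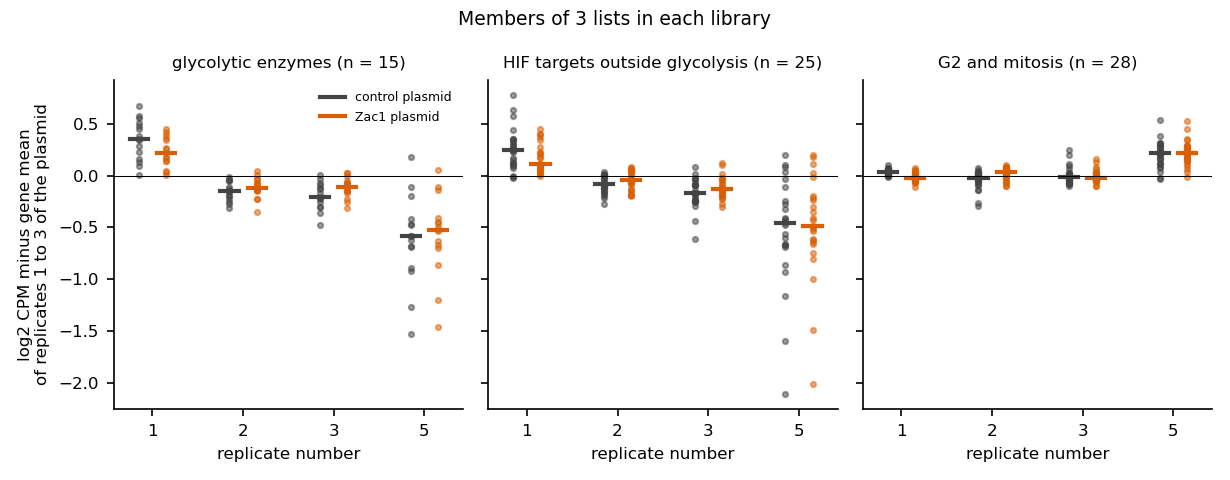
Log2 CPM of each list member with a mean of at least 10 CPM, minus its mean over replicates 1 to 3 of the same plasmid, against the replicate number. Points are genes, bars are medians, and colours are the plasmids. Medians of the glycolytic enzymes and the HIF targets lie highest in replicate 1 and lowest in replicate 5 in both groups, and those of the G2 and mitosis genes highest in replicate 5.

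Beyond the oxygen and glycolysis genes, 540 genes in all were higher and 752 lower in replicate 5, 8.73% of those tested. Typical sizes were small, with a median log2 difference of 0.23 among the higher and -0.34 among the lower genes. At least 2-fold differences were found for 29 lower genes and 1 higher gene. Most of these were weakly expressed: only 3 of the lower genes and 0 higher genes averaged 10 CPM or more. Replicate 5 lay outside the range of replicates 1 to 3 on the same side in both plasmid groups for 534 of the 540 and 746 of the 752. Over all tested genes it lay above both ranges in 16.7% and below both in 16.7%. The genes were sorted by this same contrast, so these counts follow largely from the sorting. Without replicate 1, 315 genes were higher (2.15%) and 592 lower (4.05%), and these held 275 of the 540 and 494 of the 752.

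The 12 lower genes with the largest differences among those at a mean of 10 CPM or more included Slc2a1, Gys1, Egln1 and Mxi1, given above. The first was Kbtbd11, a kelch-repeat gene, at 28.3, 19.2, 19.1 and 7.45 CPM in the control and 26.0, 20.5, 19.9 and 7.33 CPM in the Zac1 libraries, 3.0-fold lower (log2 -1.58, SE 0.21). Stc1 (stanniocalcin, a secreted glycoprotein hormone) was at 40.7, 32.4, 24.2 and 17.8 CPM in the control and 34.2, 34.2, 30.5 and 16.2 CPM in the Zac1 libraries, 1.93-fold lower (log2 -0.95, SE 0.20). Both had replicate 5 as the lowest library of each group. Grhpr (glyoxylate reductase) had a log2 difference of -0.93, Zfhx2as (an antisense RNA, whose counts cannot be parted with certainty from the opposite strand) one of -0.80, and Sncb (beta-synuclein) one of -0.79. Dpm3 (a subunit of dolichol phosphate mannose synthase), Plekha2 (a phosphoinositide-binding protein) and Dnajc24 (a J-domain protein of diphthamide synthesis) had log2 differences of -0.73, -0.72 and -0.71.

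The largest set of genes higher in replicate 5 among the lists belonged to G2 and mitosis. Of 28 tested, 19 were higher and 0 lower, with a median log2 difference of 0.23, and in 24 of the 28 replicate 5 lay above the range of the others in both groups, where 3.65% of all tested genes were higher and 16.7% lay above both ranges. The count was 16 without replicate 1, 0 without Zac1 replicate 5, 5 without control replicate 5, 8 in the Zac1 libraries alone and 0 in the control libraries alone. The median was 0.215 in the control and 0.219 in the Zac1 libraries. Cenpe, the centromere kinesin, was at 334, 265, 368 and 463 CPM in the control and 303, 303, 347 and 457 CPM in the Zac1 libraries (log2 0.52, SE 0.11), and was not past the threshold without replicate 1 or with the offsets for GC content. Hmmr, a spindle assembly factor, was at 229, 220, 209 and 266 CPM in the control and 209, 217, 207 and 288 CPM in the Zac1 libraries (log2 0.37, SE 0.05). Mki67, the proliferation antigen, was at 1161, 1023, 1197 and 1403 CPM in the control and 1146, 1106, 1227 and 1471 CPM in the Zac1 libraries (log2 0.33, SE 0.06). With the offsets Mki67, at 0.23, was not past the threshold. In these 3 genes the library numbered 5 was the highest of each group, with differences of 1.26-fold to 1.44-fold. Anln (anillin, of the cleavage furrow) had a log2 difference of 0.26 (SE 0.05), while the mitotic kinase Aurkb had one of -0.02 (SE 0.05). The list of 30 genes of G1, S phase and DNA replication did not move as one, with 4 higher, 3 lower and a median of -0.001. Mcm2, a subunit of the replicative helicase, was lower (log2 -0.25, SE 0.06). In bulk RNA a larger share of cells in mitosis and more mitotic RNA in each cell cannot be told apart.

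The 12 higher genes with the largest differences at a mean of 10 CPM or more included Cenpe. Klhl4, a kelch-like gene, came first, at 9.78, 8.78, 9.35 and 14.1 CPM in the control and 9.42, 9.38, 8.76 and 16.2 CPM in the Zac1 libraries, 1.64-fold higher (log2 0.72, SE 0.09). Gcg, the glucagon precursor of alpha cells that Min6 cells also express, was at 1236, 1409, 1393 and 1682 CPM in the control and 1335, 1386, 1386 and 2131 CPM in the Zac1 libraries, 1.40-fold higher (log2 0.49, SE 0.07). Both genes had their highest level of each group in replicate 5. Gcg was the only 1 past the threshold of 7 tested hormone and regulator genes of other islet cells. Of the 7, 5 had a log2 difference below 0, with a median of -0.10, or 0.06 with the offsets for GC content and length. Fbp1, the gluconeogenic fructose bisphosphatase that opposes phosphofructokinase, was at 24.1, 24.2, 26.4 and 30.4 CPM in the control and 24.8, 26.4, 26.7 and 39.2 CPM in the Zac1 libraries (log2 0.45, SE 0.07). Bckdhb, of branched-chain amino acid breakdown, had a log2 difference of 0.52, the neuronal tubulin regulator Stmn2 one of 0.55, the adhesion gene Chl1 one of 0.46, the guidance cue Sema5a one of 0.47 and the glycosyltransferase gene B3galt2 one of 0.45. Plk2, a stress-induced kinase, was at 0.47, Lrrc2 at 0.47 and Scel (sciellin) at 0.46. Among p53 target and apoptosis genes 5 of 21 were higher and 2 lower. The higher ones included Plk2, Trp53inp1 at 0.41 (SE 0.06) and the p53 ubiquitin ligase Mdm2 at 0.22 (SE 0.05). With the offsets 3 of the 21 were higher and 0 lower.

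**Figure D4:**
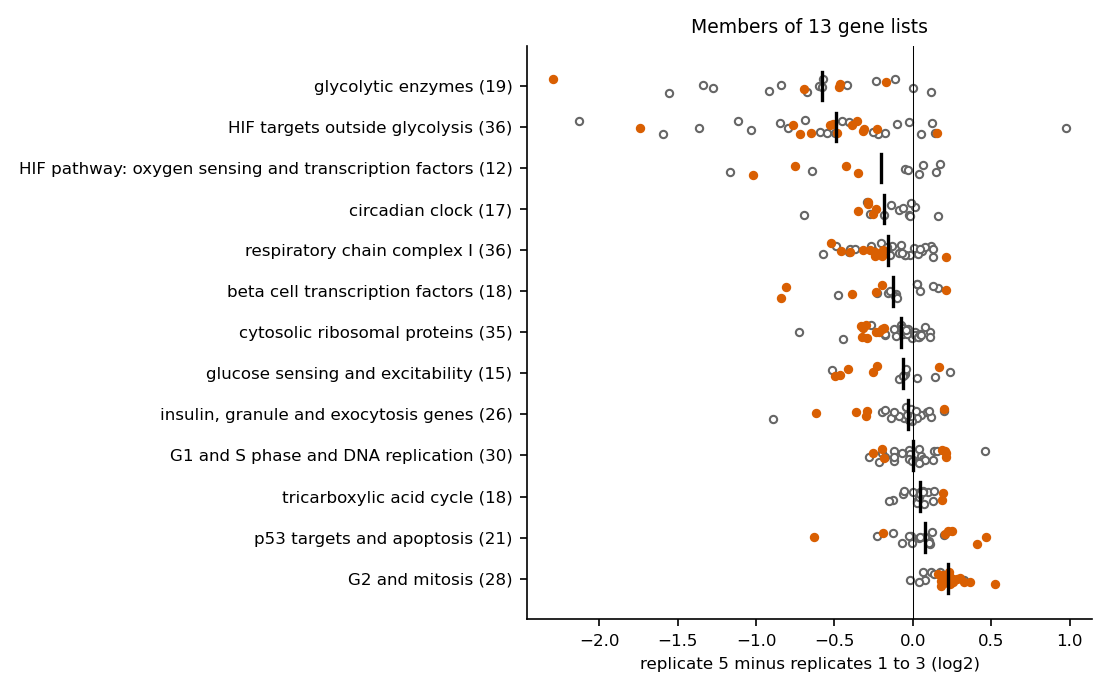
Log2 difference of replicate 5 from replicates 1 to 3 for each tested member of 13 gene lists (number of tested members in brackets), filled where past the threshold and open where not, with a black bar at each list's median. The glycolytic enzymes (median -0.58) and HIF targets (-0.49) lie furthest to the low side, and G2 and mitosis (0.23) lies on the high side.

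Beta cell identity genes differed in part. Of 18 transcription factors tested, 5 were lower and 1 higher, with a median of -0.13. With the offsets for GC content and length, 2 were lower and 0 higher, with a median of -0.07, and without replicate 1, 4 were lower. Mafa, an activator of insulin transcription, was at 7.09, 8.30, 7.20 and 5.41 CPM in the control and 7.36, 6.14, 7.63 and 2.99 CPM in the Zac1 libraries (log2 -0.84, SE 0.15). Mnx1, a homeobox gene of beta cell development, was at 5.69, 7.45, 6.20 and 3.74 CPM in the control and 6.47, 5.60, 6.69 and 3.54 CPM in the Zac1 libraries (log2 -0.81, SE 0.13). In both genes replicate 5 was the lowest of each group. The insulin gene Ins2 was at 42120, 41730, 45780 and 30690 CPM in the control and 38710, 34320, 40430 and 34910 CPM in the Zac1 libraries. Replicate 5 was the lowest control library but lay within the range of the other Zac1 libraries. The log2 difference of Ins2 was -0.30 (SE 0.08), past the threshold, and that of Ins1 was -0.19 (SE 0.10), not past it. Granule and exocytosis genes counted 4 lower and 1 higher of 26, with Chga (chromogranin A) at -0.36 (SE 0.07) and Rph3al (noc2, of granule exocytosis) at -0.62 (SE 0.09). With the offsets 1 of the 26 was lower, and Chga, at -0.18, was not past the threshold. Glucose sensing and excitability genes counted 5 lower and 1 higher of 15, with the incretin receptor gene Gipr at -0.50 (SE 0.09) and the potassium channel gene Kcnh2 at -0.42 (SE 0.08). With the offsets 3 of the 15 were lower, and Kcnh2, at -0.18, was not past the threshold.

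Mitochondrial and other housekeeping lists had median differences smaller in size than those of the glycolytic enzymes (-0.58) and the HIF targets (-0.49). Of 36 complex I genes, 9 were lower and 1 higher (median -0.16), among the lower Ndufs7 at -0.52 and Ndufa6 at -0.40, and 4 were lower with the offsets as well as without replicate 1. Complexes III and IV counted 1 lower and 2 higher of 21 (median 0.07), the higher ones including Cox5a at 0.35 (SE 0.06), and the tricarboxylic acid cycle 0 lower and 2 higher of 18. Cytosolic ribosomal protein genes counted 9 lower of 35, among them Rps15 at -0.33 (SE 0.06), but 0 of 35 with the offsets and 3 without replicate 1. Circadian clock genes counted 5 lower of 17 (median -0.18), among them Cry2 at -0.28 and Per2 at -0.24, and 2 with the offsets. Fatty acid synthesis and storage counted 3 lower and 1 higher of 19, with the sterol and lipid regulator Srebf1 at -0.47 (SE 0.09) and the desaturase gene Scd2 at -0.33 (SE 0.07).

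The genes on either side of the split differed in base composition. Transcript GC content and length, of the longest GENCODE transcript of each gene, matched by Entrez gene ID, were available for 95.1% of the tested genes. The median GC content was 44.3% for the higher genes, 57.0% for the lower and 49.7% for all tested genes, and the median length 4625, 2706 and 3438 bases. In the quintile of genes with the lowest GC content 0.532% were lower and 8.48% higher, and in the quintile with the highest 16.2% were lower and 0.106% higher. Over genes, the correlation of a library's deviation from its plasmid mean with GC content was -0.291 in control replicate 5 and -0.281 in Zac1 replicate 5. It was 0.055, 0.163 and 0.13 in control replicates 1, 2 and 3 and 0.249, -0.08 and 0.195 in the Zac1 ones. Genes are not independent replicates, and the r values describe these libraries only. With offsets that remove each library's trend over GC content and length, a setting added after the data were seen, 260 genes were higher (1.76%) and 252 lower (1.7%), of which 159 and 201 were among the genes above. With the offsets the median was -0.54 for the glycolytic enzymes (1 lower of 19), -0.49 for the HIF targets (8 lower of 36) and 0.19 for G2 and mitosis (14 higher of 28). Ldha was then at -1.53, Slc16a3 at -2.20 and Bnip3 at -1.65. The part of GC content in the differences of single genes was not tested.

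**Figure D5:**
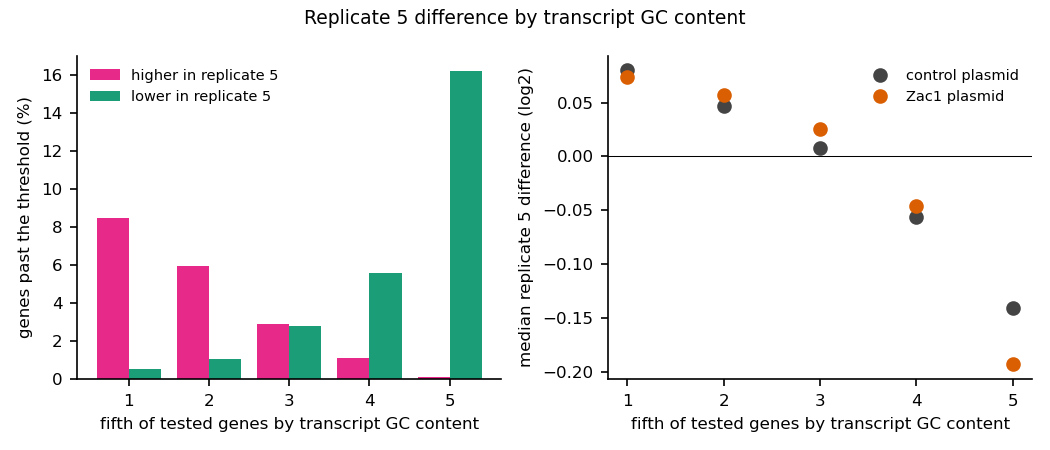
Share of genes higher and lower in replicate 5 in each quintile of tested genes by transcript GC content (left, bars from 0), and the median log2 difference of replicate 5 in each quintile for the control and the Zac1 libraries (right). The share lower goes from 0.532% in the lowest quintile to 16.2% in the highest, and the medians go from 0.08 to -0.14 in the control and from 0.07 to -0.19 in the Zac1 libraries.

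Promoters were then compared between the sets. Against the 59.7% of tested genes' promoters with at least 1 HIF core, the share was 62.1% for the higher genes and 63.5% for the lower genes. It was 70.0% for the glycolytic enzymes (21 of 30 promoters), 81.6% for the HIF targets (31 of 38) and 79.2% for G2 and mitosis (19 of 24). With the stricter ACGTG alone it was 24.5% for tested genes, 22.6% for the higher and 28.2% for the lower genes, 40.0% for the glycolytic enzymes, 47.4% for the HIF targets and 29.2% for G2 and mitosis. The median GC content of these promoters was 60.3% for tested genes, 58.5% for the higher and 61.7% for the lower genes, 57.3% for the glycolytic enzymes and 64.3% for the HIF targets, and its part in the shares was not tested. The HIF list was drawn up because the factor is known to act on its members.

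Whether replicate 5 differed alike in both plasmid groups was tested by the interaction term of edgeR's quasi-likelihood fit. The split was chosen as a difference by number in both groups, so this test is not free of that choice. An unadjusted p below 0.05 was found for 763 of 14807 genes, where chance alone would give it to a share of 0.05 of them. Past an adjusted p of 0.05 were 6 genes (0.0405%). All 6 differences were negative. None was a glycolytic enzyme or a HIF target, but with so small a share called this is no sign of likeness. The interaction SE was 0.85 for Ldha, 1.24 for Slc16a3 and 0.79 for Bnip3, so only a large difference could have been called there. Acat3, an acetyl-CoA acetyltransferase, was at 7.30, 7.33, 5.99 and 8.60 CPM in the control and 7.55, 6.94, 6.57 and 2.09 CPM in the Zac1 libraries (log2 -2.07, SE 0.25, adjusted p = 0.0033). The unnamed gene model 4930513N10Rik was at 5.25, 5.26, 5.24 and 6.56 CPM in the control and 6.57, 6.80, 5.51 and 2.30 CPM in the Zac1 libraries (log2 -1.77, SE 0.25, adjusted p = 0.014). Gm6300 was at 59.8, 52.4, 49.7 and 73.5 CPM in the control and 55.2, 60.1, 64.9 and 40.3 CPM in the Zac1 libraries (log2 -1.02, SE 0.15, adjusted p = 0.0177). In all 6 genes replicate 5 was the highest of the control libraries and the lowest of the Zac1 libraries. The other 3 were 4932702P03Rik (log2 -1.82, SE 0.29, adjusted p = 0.0319), 4930528A17Rik (log2 -1.77, SE 0.29, adjusted p = 0.0355) and Gm11149 (log2 -3.04, SE 0.52, adjusted p = 0.0459). The count rested on single libraries, with 1 gene called without Zac1 replicate 2, 13 without control replicate 1, 2 without replicate 1 and 0 without replicate 2. DESeq2 called 18 and limma-voom 3. Only 1 library of each plasmid is numbered 5, so the spread comes from replicates 1 to 3.

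Acat3 overlaps Tcp1, a strongly expressed chaperonin gene on the opposite strand. As a share of Tcp1 it stood at 1.69%, 1.85%, 1.47% and 1.98% in the control and 1.80%, 1.62%, 1.68% and 0.514% in the Zac1 libraries. A set of 119 tested genes was drawn, after the values were seen, in which at least 10% of the exon length overlaps a gene of at least 20 times the level on the opposite strand. Their median interaction was -0.39, against -0.002 over all tested genes, and 81 of the 119 lay below 0. The median level as a share of the stronger gene was 1.26% in Zac1 replicate 5, 1.41% and 1.43% in control replicates 3 and 5, and 1.65% to 1.80% in the other 5 libraries. The set, 119 of the 14807 tested genes, held 2 of the 6 called genes (Acat3 and 4932702P03Rik) and 4 of the 10 with the smallest p. It was drawn after these genes were seen, so nothing is read from these counts. The median difference of replicate 5 over the set was -0.44 in the Zac1 and 0.08 in the control libraries. The libraries were made with a stranded kit, the strand setting of the counting is not given in the sources used here, and the part of reads from the opposite strand in these 6 genes was not tested.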

How the data were processed

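RNA-seq of 8 Min6 libraries was used. The authors deposited raw counts of 23100 genes. Their processing notes list, with no order, HTSeq 0.6.1p1, Bowtie2 2.2.8, TopHat2 2.1.1, FastQC and bcl2fastq 2.17, and name mm9 as the build. The annotation is not given in the sources used here, nor is the strand setting. Every column matched 1 sample title, and 0 entries named no gene.

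Counts were fitted with edgeR 4.0.16 in R 4.3.3: filterByExpr on plasmid and replicate 5 groups, TMM scaling, a robust quasi-likelihood fit with plasmid and replicate 5 as terms, and Benjamini-Hochberg adjustment over all 14807 tested genes at a threshold of 0.05. "Higher", "lower" and "past the threshold" use that sorting. Log2 differences are replicate 5 minus replicates 1 to 3, the SE was derived from the difference and its F statistic, and CPM use TMM-scaled totals (3 counts are 0.0982 CPM at the shallowest library). DESeq2 1.42.0 and limma 3.58.1 (voom), other scalings and filters, and left-out libraries were alternatives, and offsets for GC content and length (a lowess trend per library, span 0.3) were added after seeing the data. The steps were tested on simulated data. Transcript GC content, length and overlap came from GENCODE M21 by Entrez gene ID (promoters likewise), with no coordinates, since its build differs from mm9.

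The split, its members and the 53 gene lists were chosen with earlier results of these data known. Genes were named by a written rule: the 4 leading genes, Plagl1, members past the threshold of the glycolysis, transport, pyruvate and HIF lists, the 12 largest differences each way at a mean of at least 10 CPM with replicate 5 outside the range of the others in both groups, unnamed gene models passed over, the 3 members with the smallest p of other lists and the 10 interaction genes with the smallest p. Only some of these are given, and a few are not reported here. Pfkl, Tpi1, Aldoa, Gapdh, Pgk1, Hk1, Ldhb, Eno1, Pdk1, Slc16a1, Hif1a, Epas1, Ak4, Aurkb, Ins1 and Ins2 fall outside it and were chosen after their values were seen.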

Additional observations from a re-analysis of the deposited data

Results flagged for a closer look

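In 11 of 198 sets of 4 libraries examined (each named gene in each plasmid group), 1 library lay further from the rest than Dixon's 95% critical value allows. Chance alone flags about 1 set in 20, and 10 of the 11 distant libraries were numbered 5, which the choice of genes favours. Plagl1 was at 5800 CPM in Zac1 replicate 1. In the control group, replicate 5 lay apart at 102 CPM for Pfkm, 14.9 CPM for Lrrc2 and 6.56 CPM for 4930513N10Rik. In the Zac1 group, replicate 5 lay apart at 16.2 CPM for Klhl4, 19.5 CPM for Bckdhb, 2130 CPM for Gcg, 39.1 CPM for Fbp1, 288 CPM for Hmmr, 62.4 CPM for Cox5a and 9.11 CPM for Peg3as, an antisense RNA.

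The difference of replicate 5 in Zac1 minus that in control passed edgeR's interaction test for Acat3 (log2 -2.07), 4930513N10Rik (-1.77), Gm6300 (-1.02), 4932702P03Rik (-1.82), 4930528A17Rik (-1.77) and Gm11149 (-3.04).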

How the results depend on the processing

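Direction in the alternative runs was followed for 99 single genes and 53 list medians, and not for every gene past the threshold. Of 99 single genes 13 changed sign, 0 of them past the threshold, and so did the medians of 22 of 53 lists, each within 0.12 of 0 to begin with. They included ATP synthase (-0.028, and 0.028 with GC and length offsets) and complexes III and IV (0.069, and -0.027 in the control libraries alone). The 540 higher and 752 lower genes became 260 and 252 with GC and length offsets, 155 and 349 in the Zac1 libraries alone, and 7 and 6 in the control libraries alone, where fewer samples enter. With library totals in place of TMM they were 410 and 842, and with DESeq2 size factors 507 and 745. Leaving out libraries gave 1 to 609 higher and 2 to 1042 lower genes: 1 and 2 without Zac1 replicate 5, 132 and 277 without control replicate 5 (1 library then stands for replicate 5 and is assumed to vary like the others), 269 and 485 without Zac1 replicate 1, 317 and 487 without Zac1 replicate 3, 335 and 465 without replicate 3, and 315 and 592 without replicate 1. The 5 lower glycolytic enzymes became 10 with DESeq2, 1 with GC and length offsets, 3 in the Zac1 and 0 in the control libraries alone, and 0 to 13 with libraries left out (0 without either library numbered 5, 3 without replicate 2, 8 without control replicate 1 and 13 without replicate 1). The 12 lower HIF targets became 21 with DESeq2, 1 in the control libraries alone, and 1 to 21 with libraries left out (1 without Zac1 replicate 5, 7 without control replicate 5 and 21 without replicate 1). The 19 higher G2 and mitosis genes became 8 in the Zac1 and 0 in the control libraries alone, and 0 to 21 with libraries left out (0 without Zac1 replicate 5 and 5 without control replicate 5). The 6 interaction genes became 18 with DESeq2, 12 with library totals, 3 with limma-voom, 3 at a mean of at least 1 CPM, 28 with no filter, and 0 to 13 with libraries left out. For the other shifts the cause was not tested.

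With the replicate number as a block, the interaction called 32 genes. The deviations of same-numbered libraries correlated over genes at 0.246, 0.044, 0.133 and 0.249 for numbers 1, 2, 3 and 5. Control replicate 2 correlated better with Zac1 replicate 3 (0.081). With number 5 left out, same-numbered libraries correlated at 0.174, 0.066 and 0.144, and control replicate 2 with Zac1 replicate 3 at 0.048. Since no source says what a number stands for, the main fit had no block. Whether the numbers pair the samples was not settled, and the interaction count depends on that choice. The difference of replicate 5 itself is one between numbers and allows no such block.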
